A study of Homo sapiens with 3 samples.

Results

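The genes described here are 10 members of the Notch signalling pathway and its surroundings: the receptors NOTCH1, NOTCH2 and NOTCH3, the ligands JAG1, JAG2 and DLL1, the ligand-like protein DLK2, the transcription factors HES1 and HEY1, and the adaptor NUMB. They were chosen by a measured value, the high intensity of DLK2 on 1 of the arrays, and the other genes were added for their place in the pathway. They are 10 of 20043 genes with a named probe, and 19 of 47315 probes carry their names. The cells were HCC1937, an established breast cancer line labelled basal, kept in DMEM medium that held 3 mM glucose and 0.5 mM glutamine. One group was untreated, another received 200 nM dexamethasone, a synthetic glucocorticoid, for 16 h, and the last received 200 nM dexamethasone with 1 µM retinoic acid for 16 h. No array had retinoic acid alone, so its effect can be read only on top of dexamethasone. Each group was 1 Illumina bead array of total RNA, so the differences below were not checked by replicates and no test was possible.

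Notch receptors sit in the membrane and are bound by ligands of the Jagged and Delta-like families on neighbouring cells. Binding lets proteases release the receptor's intracellular part, which enters the nucleus, joins the DNA-binding protein RBPJ and switches on genes such as HES1 and HEY1, which are themselves repressors. In mammary epithelium the pathway is known for its part in luminal and basal cell fate. DLK2 resembles the Delta-like ligands but lacks the domain with which they activate the receptor, and work in mouse cells describes it as an inhibitor of Notch signalling.

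The promoters of 2 members are shown because DLK2 had the largest differences and HES1 is the classical readout of the pathway. Both are the 250 bases before a start taken from RefSeq (GRCh38.p14), written 5′ to 3′ along the gene's strand. They are chr6:43455549-43455798 on the minus strand for DLK2 and chr3:194135898-194136147 on the plus strand for HES1. The DLK2 window lies inside the span listed for the gene, chr6:43450352-43456632, so it does not precede that span's outer end. Capitals mark the RBPJ motif GTGGGAA.

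DLK2: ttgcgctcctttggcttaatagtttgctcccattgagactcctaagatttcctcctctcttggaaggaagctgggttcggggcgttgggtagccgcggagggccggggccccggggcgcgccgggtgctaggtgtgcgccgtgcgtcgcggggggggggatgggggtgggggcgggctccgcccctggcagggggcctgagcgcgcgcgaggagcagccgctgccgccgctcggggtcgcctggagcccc

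HES1: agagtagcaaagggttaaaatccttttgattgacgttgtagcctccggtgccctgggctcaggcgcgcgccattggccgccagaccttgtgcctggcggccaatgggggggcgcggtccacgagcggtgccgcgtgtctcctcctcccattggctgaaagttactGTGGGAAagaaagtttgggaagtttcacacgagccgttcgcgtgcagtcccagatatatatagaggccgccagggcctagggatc

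RefSeq promoter windows, from 250 bases before to 50 after the start, were matched for 8 of the 10 members, without DLL1 and HEY1. They were searched on both strands. GTGGGAA occurred in 1 of these 8, HES1, where it starts at base -85 on the gene's strand, and in 6.25% of all 35116 windows. The nuclear receptor half-site AGGTCA occurred in 0 of the 8 and in 13.8% of all windows, and the glucocorticoid receptor half-site AGAACA in 0 of the 8 and in 14.8%. Paired AGGTCA half-sites spaced by 1, 2 or 5 bases, the arrangement of retinoic acid receptor elements, were found in 8, 1 and 2 windows of all and in 0 of the 8 members' windows. The DLK2 bases above are rich in G and C (72.4%, against 59.2% for those of HES1).

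Detection was set at p under 0.01 against each array's negative controls, which 16635 to 17091 probes met per array. Median unnormalized intensities were 132 (untreated), 149 (dexamethasone) and 159 (combination), so an unnormalized value that is equal on all 3 arrays is lower in relative terms on the treated ones. Values are therefore given first as unnormalized intensity with the standard error over beads (bead SE), and then as background-corrected, quantile-normalized log2 levels, from which all differences were taken. The words higher and lower, as calls, stand for a difference of at least 1 between these log2 levels, which is 2-fold. The bead SE covers only the spread of beads within arrays. "At least" marks a gene undetected on 1 of the arrays compared, whose fold was taken against that array's lowest detected value. The untreated and combination arrays shared a slide and the dexamethasone array lay on another, so treatment and slide cannot be told apart in both comparisons that use the latter.

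The label basal was only partly borne out by markers. KRT14 was undetected on all 3 arrays, KRT5 was detected on the dexamethasone array alone, and TP63 and KRT17 had no named probe here. ITGA6, CDH3, EGFR and CAV1 were detected on every array, and ITGB4 on the untreated and dexamethasone arrays only. All 9 luminal markers, ESR1 and GATA3 among them, were detected on every array. On the untreated array their summed intensity was 66595.5, against 1861.51 for the 7 named basal markers. EPCAM was detected throughout, the leukocyte genes PTPRC and CD3E and 4 of 5 endothelial markers were undetected throughout, and 5 of 7 fibroblast markers were too. Some markers of other cells were detected: CD68, a leukocyte marker, read 1028, 790 and 938 and was detected on every array, LYZ was detected on the untreated and dexamethasone arrays, as was the fibroblast marker COL1A1, and DCN on the dexamethasone array alone. Their part in the results was not tested, nor was whether the cells are HCC1937. In bulk RNA, fewer cells of a type and less RNA per cell cannot be told apart.

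All 10 members were detected on at least 1 array, 8 of them on all 3. JAG1 and HEY1 were undetected on the untreated array and enter comparisons with it only through the treated arrays. The representative probe of each gene, the brightest of its named probes, rested on 12 to 34 beads per array.

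**Figure D1:**
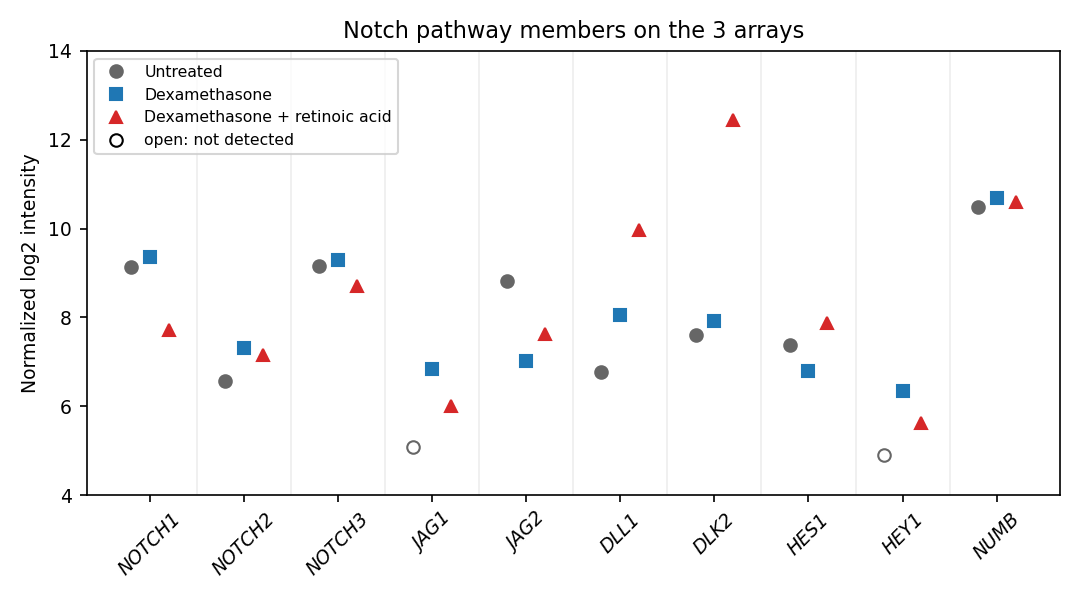
Normalized log2 intensity (y axis) of the 10 members (x axis) on the 3 arrays, 1 point per array, with open symbols where the probe was not detected. DLK2 and DLL1 reach 12.44 and 9.96 on the combination array, far above their other arrays, while NOTCH1 is lowest there at 7.72.

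Among the ligand-like genes, DLK2 stood at an intensity of 242 on the untreated array (bead SE 8.06), 364 on the dexamethasone array (9.97) and 7109 on the combination array (161). Its normalized log2 levels were 7.59, 7.93 and 12.44, so the first 2 arrays lay close together and the combination array stood alone. The differences were 28.7-fold against untreated (log2 difference 4.85, bead SE 0.09) and 22.8-fold against dexamethasone (4.51, bead SE 0.07). This is the value that chose the genes and it is given as a description. Dexamethasone alone differed from untreated by 0.33 (bead SE 0.10), within 2-fold.

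The 4 probes named DLK2 did not behave alike, and they divide by the transcript they are annotated to. The probe above, ILMN_1676728, and ILMN_1702943 are both annotated to NM_206539. On ILMN_1702943 the intensity was 126 on the untreated and 126 on the dexamethasone array, undetected on both, and 354 on the combination array (bead SE 15.1), at least 3.65-fold and at least 3.76-fold higher. The median over detected probes of DLK2 was a log2 difference of 1.87 against untreated and 3.21 against dexamethasone. These medians rest on different probes: ILMN_1662010, described below, entered only the former, because it was undetected on both treated arrays. The probes annotated to NM_023932 showed no such step. ILMN_1662010 read 150 untreated, 160 with dexamethasone and 179 with the combination, and was detected on the untreated array only, with detection p-values of 0.0312 and 0.0130 on the others. ILMN_1688935 read 124, 139 and 149.6 and was undetected throughout. Both transcripts are listed for DLK2 in RefSeq, and the probe sequences were not used here, so whether the probes tell transcripts apart was not tested.

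**Figure D2:**
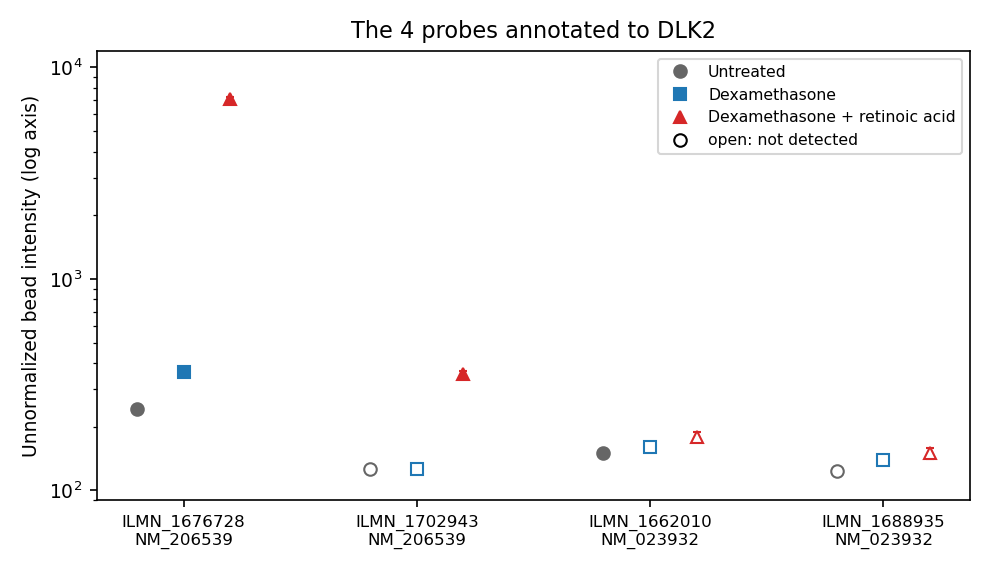
Unnormalized intensity (log axis) of the 4 probes annotated to DLK2, labelled with probe and transcript, on each array; bars are the bead SE and open symbols mark undetected values. The 2 probes of NM_206539 reach 7109 and 354 on the combination array, and the 2 probes of NM_023932 stay between 124 and 179 on all arrays.

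DLL1, a Delta-like ligand that activates Notch receptors, gave 187 on the untreated array (bead SE 7.52), 384 on the dexamethasone array (13.5) and 1432 on the combination array (59.7). Its log2 levels of 6.77, 8.06 and 9.96 put the untreated array lowest and the combination array highest, with 1 array each. DLL1 was 2.44-fold higher after dexamethasone (1.29, bead SE 0.15) and 9.18-fold higher with the combination (3.20, bead SE 0.15). The combination exceeded dexamethasone by 3.75-fold (1.91, bead SE 0.10). Only 1 probe carries its name. The dexamethasone difference was 0.76 without background correction and 0.71 in the deposited normalized values, within 2-fold in both.

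The Jagged ligands lay in opposite directions after dexamethasone. JAG1, whose loss in humans causes Alagille syndrome, read 134 on the untreated array (bead SE 4.36, undetected), 237 on the dexamethasone array (12.9) and 205 on the combination array (9.40). After dexamethasone it was at least 2.37-fold higher. The combination exceeded untreated by at least 1.33-fold and was 0.83 below dexamethasone on the log2 scale (bead SE 0.24). The dexamethasone call rests on dim values and fell within 2-fold with a background offset of 50 (0.85), without background correction (0.48) and in the deposited values (0.43).

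JAG2 read 427 on the untreated array (bead SE 17.2), 252 on the dexamethasone array (12.0) and 382 on the combination array (21.0). The combination array was brighter as a whole, and after normalization the level of JAG2 there was 7.62, between 7.02 with dexamethasone and 8.81 untreated. JAG2 was 3.48-fold lower after dexamethasone (log2 difference -1.80, bead SE 0.15) and 2.29-fold lower with the combination (-1.19, bead SE 0.14). Both treated arrays lay below the untreated one, and the difference between them was 0.60 (bead SE 0.18). A second detected probe, annotated to another transcript, gave -1.26 and -1.11 (bead SE 0.18 for each), and 0.14 between the treated arrays (bead SE 0.21). The remaining JAG2 probe, annotated to the same transcript as the representative one, was undetected throughout at 113, 120 and 151. The combination call fell within 2-fold without background correction (-0.85), in the deposited values (-0.82) and without normalization (-0.35), a setting under which the median of all genes stood at 0.74.

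Of the receptors, NOTCH1 was the one that passed the 2-fold rule. It read 499.6 on the untreated array (bead SE 19.2), 764 on the dexamethasone array (43.0) and 401 on the combination array (16.3). Its log2 levels were 9.13, 9.36 and 7.72: the first 2 differed by 0.23 (bead SE 0.12) and the combination array stood below both. NOTCH1 was 2.65-fold lower with the combination than untreated (-1.41, bead SE 0.11) and 3.11-fold lower than with dexamethasone (-1.64, bead SE 0.13). Without normalization the former difference was -0.54, again against a median of all genes of 0.74.

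NOTCH3 read 507, 732 and 674 in the order untreated, dexamethasone, combination (bead SE 14.5, 22.0 and 21.8). Its log2 levels of 9.15, 9.29 and 8.70 had the same order as those of NOTCH1, with smaller gaps: 0.13 (bead SE 0.07), -0.45 (0.08) and -0.58 (0.08) for the 3 comparisons. NOTCH2 read 177, 282 and 308 (bead SE 6.45, 6.42 and 11.3), with the untreated array lowest. Its treated arrays were 0.74 (bead SE 0.14) and 0.58 (0.16) above untreated and 0.16 apart (0.11), which is not beyond 2 bead SE, and its other 2 probes were undetected on every array.

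HES1, the repressor that Notch induces in many tissues, read 224 untreated (bead SE 7.78), 233 with dexamethasone (8.24) and 432 with the combination (18.5). Its log2 levels were 7.37, 6.79 and 7.88, lowest with dexamethasone and highest with the combination. The combination was 2.12-fold above dexamethasone (1.09, bead SE 0.14), while against untreated dexamethasone stood at -0.58 (bead SE 0.14) and the combination at 0.51 (0.13). That call lies close to the 2-fold limit, and fell within it with a background offset of 50 (0.90), without background correction (0.63) and in the deposited values (0.58).

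HEY1, a related repressor, did not follow HES1. It read 129 untreated (bead SE 4.65, undetected), 204 with dexamethasone (7.36) and 185 with the combination (5.17). Its level with dexamethasone was at least 1.69-fold that of the untreated array, and with the combination at least 1.02-fold, bounds that do not show on which side of 2-fold the gene lies. After dexamethasone it passed 2-fold under 3 of 8 alternatives: 1.05 without normalization, 1.08 with detection at p under 0.05 and 1.45 without the bound. The combination was 0.72 below dexamethasone (bead SE 0.18), within 2-fold. Its other probe was undetected throughout.

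NUMB, an endocytic adaptor that opposes Notch, was bright and nearly level. It read 1154, 1708 and 2140.45 (bead SE 31.7, 49.6 and 76.6), with log2 levels of 10.48, 10.69 and 10.59. Its differences were 0.21, 0.11 and -0.10 in the order of the comparisons, and -0.12, 0.16 and 0.28 on its other detected probe, so no direction is settled.

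**Figure D3:**
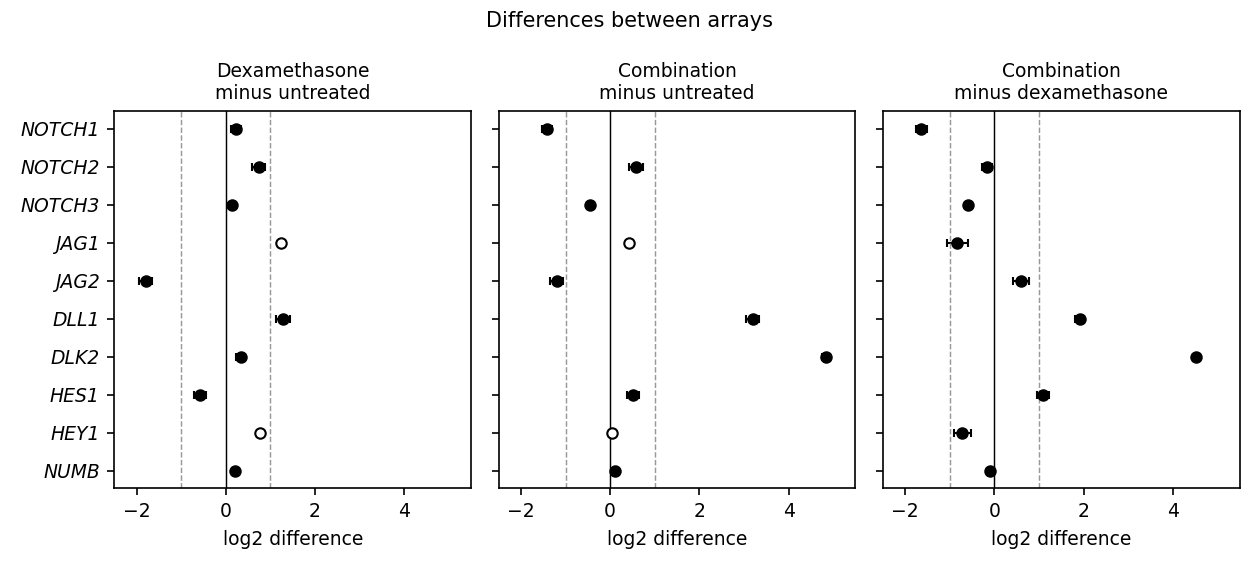
Log2 difference (x axis) of each member in the 3 comparisons; bars are the bead SE, open circles mark bounds against an undetected array, and dashed lines mark 2-fold. DLK2 (4.85 and 4.51) and DLL1 (3.20 and 1.91) lie to the right in both panels with the combination, and NOTCH1 (-1.41 and -1.64) to the left.

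Counted together, 2 members were higher after dexamethasone (JAG1, DLL1) and 1 lower (JAG2), with a median log2 difference of 0.28 over the 10. Over all 10852 measured genes 5.73% were higher, 4.57% lower, and the median was 0. With the combination against untreated, 2 were higher (DLK2, DLL1) and 2 lower (NOTCH1, JAG2), with a median of 0.26, where 5.84% of 10705 genes were higher, 5.43% lower and the median was -0.01. Against dexamethasone, the combination had 3 higher (DLK2, DLL1, HES1) and 1 lower (NOTCH1), with a median of -0.13, where 2.99% of 10734 genes were higher, 3.58% lower and the median was -0.01. DLK2 was picked on the combination array, so nothing is read from the counts that hold it. Without it they were 1 higher and 2 lower, and 2 higher and 1 lower, of 9. The comparisons share arrays and are not independent of each other. Without normalization the median of all genes moved to 0.42, 0.74 and 0.31 in the same order. The members' calls became 4 higher and 1 lower, 4 higher and 0 lower, and 3 higher and 1 lower. Over all genes that setting gave 1515 higher and 146 lower of 10852, 3538 and 100 of 10705, and 930 and 170 of 10734. The members' counts with the combination again hold DLK2, so nothing is read from them.

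The wider pathway was described through 9 lists of 89 genes by role, of which 85 had a named probe and 62 were detected on at least 1 array. Leaving aside the 10 members, 4 of 52 measured genes were higher and 2 lower after dexamethasone (7.69% and 3.85%, against 5.73% and 4.57% of all genes). With the combination against untreated 5 of 51 were higher and 4 lower (9.80% and 7.84%, against 5.84% and 5.43%). With the combination against dexamethasone 2 of 52 were higher and 5 lower (3.85% and 9.62%, against 2.99% and 3.58%). Their medians were 0.20, 0.14 and -0.17. With the members, the counts were 6 and 3 of 62, 7 and 6 of 61, and 5 and 6 of 62. Without normalization these became 21 and 2, 25 and 1, and 9 and 2, while over all genes there were 1515 higher and 146 lower of 10852, 3538 and 100 of 10705, and 930 and 170 of 10734. With scaling to the 75th percentile the combination against untreated gave 9 and 5, beside 679 and 547 of all genes.

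No other receptor or canonical ligand was detected: NOTCH4, DLL3 and DLL4 were undetected on all arrays. Of the other non-canonical ligands DLK1, the closest relative of DLK2, was undetected throughout at 120, 121 and 134. DNER read 113 (undetected), 203 and 181 (undetected). After dexamethasone it was at least 1.66-fold above untreated, a bound that leaves its side of 2-fold unsettled. MFAP2, a microfibril protein, read 182, 234 and 187 and was 2.20-fold lower with the combination than with dexamethasone (-1.14, bead SE 0.15). Its combination value lay near that array's lowest detected intensity, 185. The deposited values were 206 with dexamethasone and 156 with the combination, within 2-fold.

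Enzymes that act on ligands or receptors were mostly within 2-fold. LFNG, a fringe glycosyltransferase that alters which ligands a receptor answers to, read 619, 746 and 569.5. It was 2.14-fold lower with the combination than untreated (-1.10, bead SE 0.09) and 0.92 below dexamethasone (0.08). NEURL1, a ubiquitin ligase of the Neuralized family, was undetected untreated at 115 and read 213 with dexamethasone and 323 with the combination. It was at least 3.18-fold above untreated with the combination. After dexamethasone it was at least 1.88-fold above untreated, which leaves its side of 2-fold unsettled. FURIN, the convertase that cuts the Notch precursor, was undetected untreated at 143 and read 254 and 200.5 with the treatments. It was at least 2.71-fold higher after dexamethasone, and the combination was 2.14-fold below dexamethasone (-1.10, bead SE 0.20). The other 7 named proteases and secretase subunits, among them ADAM10, ADAM17 and NCSTN, stayed within 2-fold in every comparison.

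In the nuclear complex RBPJ read 264, 298 and 562, and its differences were -0.34 (bead SE 0.13), 0.58 (0.09) and 0.92 (0.12), within 2-fold in each. The coactivator MAML1 read 216, 389 and 273 and was 2.33-fold lower with the combination than with dexamethasone (-1.22, bead SE 0.16). The acetyltransferase KAT2B read 189, 360 and 367 and was 2.12-fold higher after dexamethasone (1.08, bead SE 0.18). No other measured gene of this list passed 2-fold on its representative probe. Another probe of the corepressor CTBP2 read 214, 167 (undetected) and 214, and was at least 3.22-fold lower after dexamethasone and 2.12-fold lower with the combination than untreated (-1.09, bead SE 0.18). One of the other detected probes of CTBP1, its relative, was lower after dexamethasone, just past the 2-fold limit (bead SE 0.16).

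The HES and HEY family was split. HES2 read 148, 186 and 298 and was 2.68-fold higher with the combination than untreated (1.42, bead SE 0.23) and 2.10-fold higher than with dexamethasone (1.07, bead SE 0.21). HES6, described in mouse as an antagonist of HES1, read 361, 257 and 241 and was 2.69-fold lower after dexamethasone (-1.43, bead SE 0.10) and 3.96-fold lower with the combination (-1.98, bead SE 0.14). HES4, HEYL and BHLHE40 stayed within 2-fold, and HES5, HES7, HEY2 and BHLHE41 were undetected. NRARP, a feedback inhibitor that Notch induces, read 201, 189 and 186 and was 2.62-fold lower with the combination than untreated (-1.39, bead SE 0.25), close to the detection limit, with its other detected probe at -0.16 as a bound.

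Of 8 measured genes on the list of other Notch targets, NRARP among them, 5 passed 2-fold with the combination against untreated. They were 3 higher and 2 lower (NRARP and GATA3), where over all genes 5.84% were higher and 5.43% lower. After dexamethasone 2 of 8 were higher and 1 lower (5.73% and 4.57% of all genes). With the combination against dexamethasone 1 was higher and 1 lower (2.99% and 3.58%). ID1, a helix-loop-helix inhibitor also induced by BMP signals, read 567, 997 and 3882 and was 4.53-fold higher with the combination than untreated (2.18, bead SE 0.12) and 3.29-fold higher than with dexamethasone (1.72, bead SE 0.07), but its other detected probe gave 0.56 and, as a bound, 0.63. ID3, its relative, read 1034, 3907 and 2866 and was 3.14-fold higher after dexamethasone (1.65, bead SE 0.06). MYC read 3096, 5729.6 and 11169.7 and was 2.31-fold higher with the combination than untreated (1.21, bead SE 0.07), with 1.76 on its other probe, which was also 1.16 above dexamethasone. SOX9 was 2.05-fold higher in the same comparison. The cell cycle inhibitor CDKN1A was 2.23-fold higher after dexamethasone and 2.03-fold lower with the combination than with dexamethasone. GATA3, a luminal transcription factor, was 3.00-fold lower after dexamethasone (-1.59, bead SE 0.08).

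On their representative probes, no inhibitor or turnover factor passed 2-fold against untreated. DTX3, of the Deltex family of ubiquitin ligases, was undetected on the untreated array and was at least 1.89-fold above it after dexamethasone, a bound that leaves its side of 2-fold unsettled. DTX2, of the same family, had another detected probe that read 128 (undetected), 237 and 188. That probe was at least 2.37-fold higher after dexamethasone and 2.20-fold lower with the combination than with dexamethasone (-1.14, bead SE 0.25). Between the treated arrays 1 representative probe passed 2-fold, that of the ubiquitin ligase NEDD4, 2.19-fold lower with the combination (-1.13, bead SE 0.11), but its other detected probe stood 0.42 higher there, which leaves the direction unsettled.

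**Figure D4:**
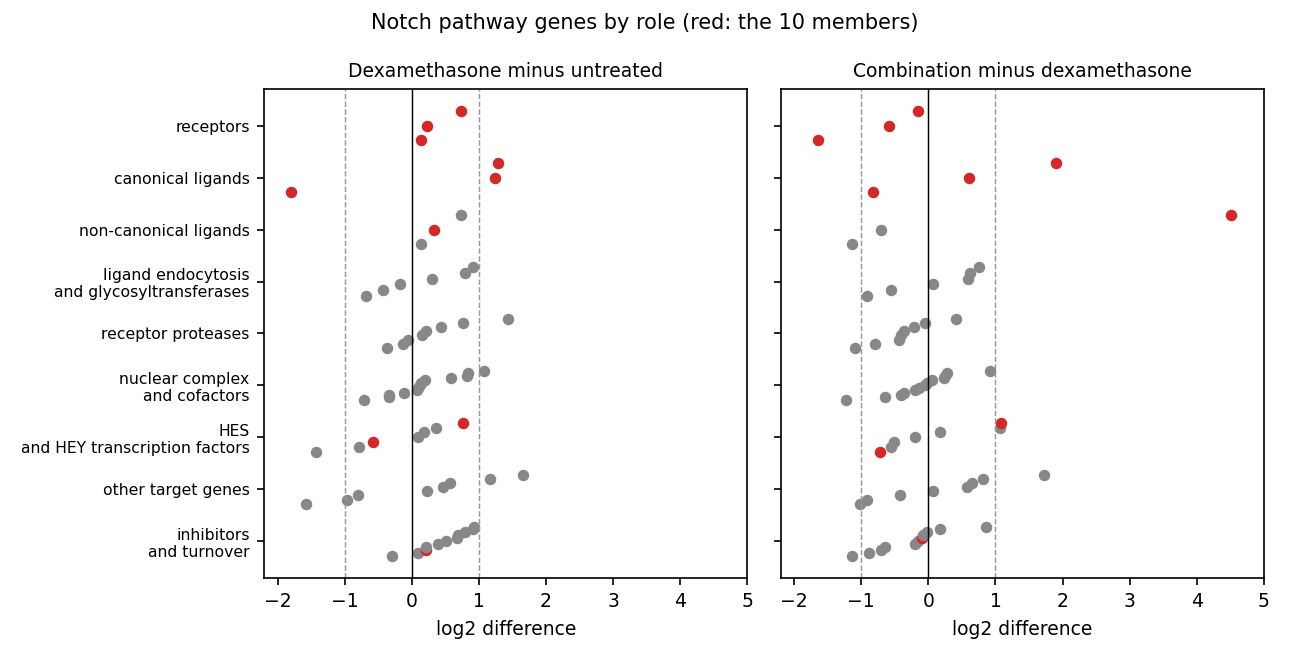
Log2 difference (x axis) of each measured pathway gene, grouped by role (y axis), for dexamethasone against untreated and for the combination against dexamethasone; red points are the 10 members and dashed lines mark 2-fold. Most measured genes lie between the dashed lines. In the first panel the 3 measured canonical ligands lie outside them (JAG1 1.24, DLL1 1.29 and JAG2 -1.80). Over all genes 5.73% were higher and 4.57% lower in that comparison. The JAG1 value is a bound, and bounds are not marked in this figure. In the deposited values JAG1 (0.43) and DLL1 (0.71) lay within 2-fold. DLK2 at 4.51 and DLL1 at 1.91 lie farthest to the right in the second panel.

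Likeness to DLK2 was measured as the distance between the 3 normalized log2 levels after each gene was centred on its own mean, over the 3 arrays, and 11107 other detected genes were ranked. The nearest were S100A7 (distance 0.67), MAG (0.77), CDH5 (0.98), TMPRSS2 (1.04), CYP2F1 (1.19) and LXN (1.31). S100A7, an epithelial calcium-binding protein with a near-identical copy that its probe may not tell apart, read 436, 1203 and 17634. LXN, a carboxypeptidase inhibitor, read 568, 1381 and 10330.5. MAG, CDH5, TMPRSS2 and CYP2F1 were detected on the combination array only, so their levels on the other arrays are background values. CDH5 is also an endothelial marker. The summed intensity of the 5 endothelial markers was 585, 676 and 2262, and PECAM1, VWF, KDR and TEK were undetected on all arrays.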

How the data were processed

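Total RNA of 3 HCC1937 samples, 1 per group, was made into biotinylated cRNA and hybridised to Illumina bead arrays, per the labels' protocols. The authors deposited a mean bead intensity per probe, unscaled and not background-subtracted, with its standard error and bead number, per the file headers. The deposited detection p-value compares a probe with its array's negative controls, per the file headers. A second deposited table holds linear intensity with shared quartiles on all arrays, which appeared quantile normalized from the values; the scanner software is not given in the sources used here.

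limma 3.58.1 in R 4.3.3 inferred the negative controls from detection p-values, applied normexp with an offset of 16, quantile normalized all 3 arrays and took log2. Python 3.11.15 (numpy 2.4.6, pandas 2.3.3) did the rest, with figures in matplotlib 3.10.9. By the platform annotation 30109 probes carried 1 gene symbol, 8 carried several and 17198 were unnamed here. Each gene took its brightest named probe. A gene was measured if detected (p under 0.01) on at least 1 array compared. Where the bound on an undetected side would turn the sign, the difference was set to 0. Bead SEs were carried to log2 from background-corrected values. The procedure was tested on simulated arrays in which only probes bright when untreated and detected on all 3 arrays were changed. Both simulated treated arrays were given the same changes. The simulation therefore covered neither a difference between the treated arrays nor changes in genes dim on the untreated array. The members and lists were chosen with earlier results of these data known. Named were all members, pathway genes past 2-fold (at most 4 per list and comparison, by size) and the 6 genes nearest to DLK2; RBPJ, DLK1 and other genes within 2-fold were named after their values were seen. 9 alternative settings were tried.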

Additional observations from a re-analysis of the deposited data

How the results depend on the processing

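Each result was recomputed under 9 alternatives. The count of members past 2-fold after dexamethasone was 3, and became 1 without background correction, 1 with the deposited values and 5 without normalization. Over all 10852 genes, 622 higher and 496 lower became 306 and 177, 289 and 165, and 1515 and 146 under the same settings. Calls over all genes thus fell and rose under the same settings as those of the members. For the pathway lists, the counts of 9, 13 and 11 in the order of the comparisons became 4, 6 and 4 without background correction and 4, 6 and 5 with the deposited values. Without normalization the first 2 became 23 and 26, and with an offset of 50 the last became 7. Over all genes the combination against untreated had 625 higher and 581 lower. These became 271 and 241 without background correction, 257 and 221 with the deposited values, and 3538 and 100 without normalization. Against dexamethasone, 321 and 384 became 108 and 153 without background correction, 105 and 145 with the deposited values, and 198 and 265 with an offset of 50. These settings either draw dim values together or leave the arrays' overall brightness in. The log2 difference of DLK2 between combination and dexamethasone, 4.51, was 3.97 without background correction, 3.97 with the deposited values, 4.33 with an offset of 50, 4.84 without normalization and 3.21 as the median over detected probes. Its difference against untreated, 4.85, was 1.87 as that median, which there also took in ILMN_1662010. DLL1 with the combination, in both comparisons, NOTCH1 against dexamethasone and JAG2 after dexamethasone passed 2-fold under all 9. DLK2 with the combination did too, but that value chose the genes, so nothing is read from it. No member past 2-fold changed sign under any alternative. Of those within 2-fold, NOTCH3 against untreated (-0.45) was 0.44 and NOTCH2 against dexamethasone (-0.16) was 0.13 without normalization, and NUMB against dexamethasone (-0.10) was above 0 under 3 alternatives, up to 0.34. No paired analysis was possible because each group has 1 array, and the number of arrays limits every value. JAG1, HEY1, HES2, NRARP and, on the combination array, MFAP2 lie near background.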
